A study of Mus musculus with 4 samples.

Results

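The genes of the glial cell line-derived neurotrophic factor (GDNF) family were followed in RNA-seq of mouse spermatogonial stem cell (SSC) cultures. The 9 genes were taken by symbol from the deposited table of raw counts: the signalling receptor Ret, the GFRA co-receptors Gfra1, Gfra2, Gfra3 and Gfra4, the ligands Gdnf, Nrtn and Artn, and the adhesion molecule Ncam1. They are 9 of the 55421 genes in the table. Family relatives that the choice by symbol did not take in, Pspn, Gfral and Gdf15, are given for context.

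GDNF family ligands signal through a complex of the receptor tyrosine kinase RET and a GFRA co-receptor that is tethered to the cell surface. Each co-receptor has a preferred ligand: GFRA1 binds GDNF, GFRA2 neurturin (Nrtn), GFRA3 artemin (Artn) and GFRA4 persephin (Pspn). In the testis GDNF is made by somatic cells around the germ cells, and RET with GFRA1 on undifferentiated spermatogonia is needed for SSC self-renewal, so that SSC cultures depend on added GDNF. NCAM1 can bind GDNF together with GFRA1 in place of RET.

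Poly(A) RNA was sequenced from SSC cultures derived from testes of CD1 mouse pups and kept on mouse embryonic fibroblast (MEF) feeder cells. The Veh cultures stayed in complete SSC medium. The NRRA cultures received retinoic acid (RA) for 2 days in a nutrient restriction medium, in which a balanced salt solution took the place of most of the complete medium. No genetic change was made in either group, and each group had 2 libraries. The comparison asks whether the response to nutrient restriction and RA, studied mostly in cultures of a hybrid background, is also seen in CD1. The labels give 10 ng/ml each of basic FGF and GDNF for the cultures. For GDNF the medium list of the study differs from the labels, so its dose is uncertain. Both were supplied as protein in the complete medium, so the restriction medium also held less of them. The medium, the growth factor dose and RA changed together, and their parts cannot be told apart. The feeder cells, which are irradiated and come from CF1 mice, were present in both groups, and their RNA is in every library. Replicates for sequencing are called biologically independent in the study's general statement on replication. No label ties these libraries to particular cultures or animals, and p-values measure the spread between these libraries.

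The libraries held 28022265 and 30715160 counts (Veh) and 31604769 and 29214798 counts (NRRA), and 3 counts, taken as the floor, were worth between 0.0921 and 0.111 CPM, which are counts scaled to the size of the library. Levels below are in CPM, or in CPM per kilobase of exon where genes are compared with each other, and counting intervals cover counting error only. Pearson's r of log2 CPM across genes, which are not independent replicates, was 0.993 between the Veh libraries, 0.994 between the NRRA libraries and at most 0.959 between groups. The germ cell identity of the cultures was checked on 8 germ cell markers, whose summed level was 1603 and 1680 CPM in Veh and 1615 and 1596 CPM in NRRA. Of these 8, 3 were higher and 4 lower, and Pou5f1, also a pluripotency gene, fell from 97.5 to 18.1 CPM. Of 16 fibroblast feeder markers, 13 were lower and 2 were higher in NRRA, and their sum was 10793 and 10663 CPM in Veh and 8088 and 7860 CPM in NRRA. Sertoli cell markers gave a mixed picture: Amh and Rhox5 had at most 3 counts in any library and Fshr had none in all 4. Inhbb went from 93.2 to 38.4 CPM and Sox9 from 28.2 to 9.38 CPM, while Wt1 was not called and Inha was higher. The 10 markers summed to 132.2 and 134.6 CPM in Veh against 59.3 and 60.1 CPM in NRRA, most of it from Inhbb and Sox9. The part of Sertoli cell RNA in the values of the ligand genes was not tested. Of 7 differentiating spermatogonia markers 6 were higher in NRRA, and of 10 undifferentiated spermatogonia markers 7 were lower and 1 was higher. By the same test, given below, 27.9% of all tested genes were higher and 28.4% were lower.

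All 9 genes passed the filter on low counts. With edgeR's quasi-likelihood test and Benjamini-Hochberg adjustment over 20232 tested genes, 4 were higher (Gfra3, Nrtn, Gdnf and Ncam1) and 5 were lower (Ret, Gfra1, Gfra2, Gfra4 and Artn) in NRRA. Calls were common in this comparison: 56.4% of the tested genes were called, 27.9% as higher and 28.4% as lower. A change of at least 2-fold was less common, with 7.02% of the tested genes called lower and 6.29% called higher by that much. Ret and Gfra1 fell at least 2-fold, and Gfra3 and Nrtn rose at least 2-fold. In 9 of the 9 genes both NRRA libraries lay on one side of both Veh libraries, as in 76.7% of all tested genes. The median log2 fold change of the 9 genes was -0.28, beside 0.00029 over all tested genes. The calls for Gdnf, Gfra4 and Artn were lost under several other settings.

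**Figure D1:**
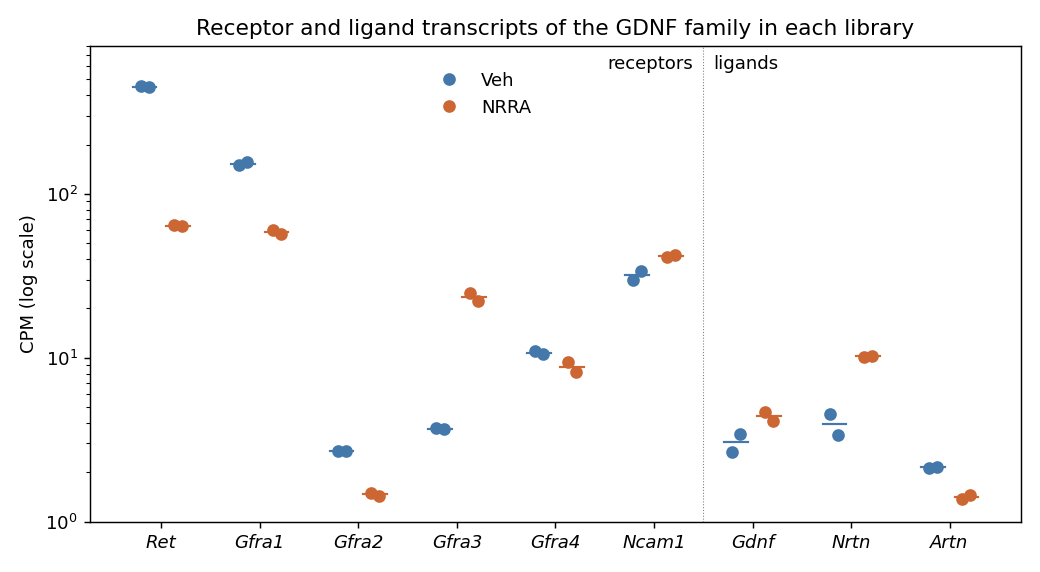
Level of each of the 9 genes in the 4 libraries, in CPM on a log axis, with a point per library for the 2 Veh and the 2 NRRA libraries. Ret and Gfra1 fall from 452 and 153 CPM in Veh to 64.1 and 58.7 CPM in NRRA, while Gfra3 rises from 3.69 to 23.5 CPM.

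Ret encodes the receptor tyrosine kinase that all GDNF family ligands of the GFRA co-receptors signal through (ENSMUSG00000030110, GRCm38 chromosome 6, 118151745 to 118197718, minus strand). It was counted 12380 and 13332 times in the Veh libraries, which is 456.5 and 448.1 CPM. The NRRA libraries had 2102 and 1914 counts, or 64.5 and 63.6 CPM. The groups were far apart, and the libraries within each group were nearly equal. The mean level went from 452 ± 5.93 to 64.1 ± 0.681 CPM (SD, n = 2 each), which leaves 14.2% of the Veh level. The log2 fold change was -2.82 (SE 0.031, 95% interval -2.88 to -2.75, adjusted p 5.6e-29 by edgeR), a 7.06-fold fall. Among the 20232 tested genes, 214 with Ret included had a log2 fold change as low or lower, which is 1.06%. Per kilobase of exon, the level of Ret lay at or above 97% of the tested genes in Veh and at or above 69% in NRRA. In a bulk sample, fewer cells of a type and less RNA per cell cannot be told apart. The summed level of the 10 undifferentiated spermatogonia markers moved the same way. It went from 865.7 and 860.7 CPM in Veh to 558 and 564.9 CPM in NRRA. Single markers differed: Zbtb16 fell from 442 to 81.7 CPM and Nanos3 from 34.9 to 0.895 CPM, while Sall4 rose from 181.2 to 323.4 CPM. Of the 10, 7 were lower, 1 was higher and 2 were not called, beside 28.4% lower and 27.9% higher of all tested genes. Their median log2 fold change was -0.99, and the part of this shift in the fall of Ret was not tested. Germ cell markers as a whole had a median log2 fold change of -0.06.

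Gfra1 encodes the co-receptor that binds GDNF and marks a stem cell-enriched fraction of undifferentiated spermatogonia (ENSMUSG00000025089, GRCm38 chromosome 19, 58235604 to 58455909, minus strand). It had 4080 and 4649 counts in Veh, or 150.4 and 156.2 CPM. In NRRA it had 1975 and 1709 counts, or 60.6 and 56.8 CPM. Both NRRA libraries were well below both Veh libraries. The level fell from 153 ± 4.11 to 58.7 ± 2.74 CPM (SD, n = 2 each), to 38.3% of Veh, with a log2 fold change of -1.38 (SE 0.041, 95% interval -1.47 to -1.30, adjusted p 3.57e-20 by edgeR). As low or lower a log2 fold change was found for 924 tested genes, Gfra1 included, or 4.57%. The interval did not overlap that of Ret, which was lower. Per kilobase of exon, the ratio of Gfra1 to Ret was 0.407 and 0.431 in Veh, against 1.16 and 1.10 in NRRA. With 2 libraries against 2, an exact permutation test of a ratio cannot go below p = 0.333, so the ratios are given as values. Of the exonic bases of Gfra1, 7.6% overlap the antisense gene Gm16277, and the strand setting of the counts is not given in the sources used here.

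The start of Gfra1 is shown because it is the co-receptor with the highest level in Veh and has an entry in the RefSeq promoter table (GRCm38.p6), which holds 250 bases before and 50 bases after a start. The table has an entry for 5 of the 9 genes and none for Ret. The window is chr19:58455349-58455648 on the minus strand, with 54% G and C and 12 CpG, printed 5′ to 3′, and the capitals mark the ETS core CCGGAA, 156 bases before the start. The whole window lies within the GENCODE gene given above, whose start is farther upstream.
Gfra1: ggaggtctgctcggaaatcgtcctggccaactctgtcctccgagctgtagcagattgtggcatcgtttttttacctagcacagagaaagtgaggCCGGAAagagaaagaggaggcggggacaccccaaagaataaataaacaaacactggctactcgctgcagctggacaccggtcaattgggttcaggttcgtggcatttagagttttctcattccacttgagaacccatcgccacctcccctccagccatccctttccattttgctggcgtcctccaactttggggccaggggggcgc
The core is present on at least one strand in 14.9% of the 32851 promoters of the table. It is a match of letters and not a site of binding. The other motifs searched on both strands, the nuclear receptor motif AGGTCA, the E-box CACGTG and the GC box GGGCGG, were not found in this window, and they are present in 16.3%, 7.15% and 35.7% of all promoters.

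The genes with the profiles nearest to those of Ret and Gfra1 were found by the Euclidean distance between log2 CPM over the 4 libraries, each centred on its own mean. With 4 libraries in 2 groups, this measure mostly finds genes with a similar fold change. Nearest to Ret were Pygl (distance 0.0567), Bcl6b (0.0819) and Triml1 (0.0916), in log2 CPM. Bcl6b encodes a transcriptional repressor that acts downstream of GDNF in SSC, and Pygl encodes liver glycogen phosphorylase. Bcl6b fell from 267.7 to 39.2 CPM. Nearest to Gfra1 were Synj2 (distance 0.0363), 1500009L16Rik (0.0458) and Itpkb (0.0466), of which Synj2 and Itpkb encode enzymes of inositol phosphate metabolism.

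Gfra3 encodes the co-receptor that prefers artemin and is best known from sensory and sympathetic neurons (ENSMUSG00000024366, GRCm38 chromosome 18, 34689898 to 34720387, minus strand). It was counted 101 and 109 times in Veh, or 3.72 and 3.66 CPM. In NRRA it was counted 813 and 666 times, or 24.96 and 22.1 CPM. The lower NRRA library was still far above both Veh libraries. The level rose from 3.69 ± 0.0429 to 23.5 ± 2.01 CPM (SD, n = 2 each), a 6.38-fold rise, with a log2 fold change of 2.67 (SE 0.11, 95% interval 2.44 to 2.91, adjusted p 8.92e-17 by edgeR). Among the tested genes, 182 with Gfra3 included had a log2 fold change as high or higher. Per kilobase of exon, Gfra3 lay at or above 37% of the tested genes in Veh and at or above 73.7% in NRRA.

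Markers of neural and Schwann cells, in which Gfra3 and other family genes are also known, were looked at beside this rise. Of 7 such markers, 1 was called higher and 1 lower, beside 27.9% and 28.4% of all tested genes. Sox10, which defines Schwann cells and other neural crest cells, was at 1.88 and 1.88 CPM in Veh and 2.43 and 2.13 CPM in NRRA (adjusted p 0.326 by edgeR). The neuronal gene Elavl4 was at most 1.36 CPM in any library. The summed level of the 7 markers was 107.8 and 108.5 CPM in Veh and 150.7 and 163.9 CPM in NRRA, most of it from Erbb3, a receptor that other cell types also express, which had a log2 fold change of 0.58. The part of these genes in the rise of Gfra3 was not tested.

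Gfra2 and Gfra4 had smaller log2 fold changes than Gfra1 and Gfra3. Gfra2, the co-receptor gene for neurturin (ENSMUSG00000022103, GRCm38 chromosome 14, 70890120 to 70979838, plus strand), had 73 and 80 counts in Veh, against 49 and 43 counts in NRRA. These are 2.69 and 2.69 CPM against 1.51 and 1.43 CPM, without overlap. The fall was 1.83-fold, with a log2 fold change of -0.87 (SE 0.23, adjusted p 0.00243 by edgeR) and a wide 95% interval from -1.36 to -0.39. Gfra4, the co-receptor gene for persephin (ENSMUSG00000027316, GRCm38 chromosome 2, 131039632 to 131043088, minus strand), was counted 297 and 312 times in Veh, against 309 and 245 times in NRRA. This is 10.9 and 10.5 CPM in Veh and 9.49 and 8.14 CPM in NRRA. The NRRA libraries of Gfra4 differed more from each other than the nearer one did from Veh. Its log2 fold change was -0.28 (SE 0.11, 95% interval -0.51 to -0.04, adjusted p 0.039 by edgeR). Without Veh replicate 1 the adjusted p of Gfra4 was 0.117 at a log2 fold change of -0.25, without NRRA replicate 2 it was 0.329 at -0.18, and in DESeq2 it was 0.168. With library size only it was 0.162, with upper quartile factors 0.0546 and with no filter on low counts 0.0553.

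The make-up of the co-receptor transcripts differed between the groups. Summed over the 4 GFRA genes, the level per kilobase of exon was 35.6 ± 0.577 CPM per kilobase in Veh and 27.0 ± 1.96 in NRRA (SD, n = 2 each). Gfra1 made up 78.7 ± 0.834% of this sum in Veh and 39.8 ± 1.04% in NRRA. Gfra3 went from 5.2 ± 0.145% to 43.7 ± 0.553%. Gfra4 held 13.9 ± 0.653% and 15.1 ± 0.538%, and Gfra2 held 2.14 ± 0.0363% and 1.54 ± 0.0553%. Gfra3 had a slightly larger share than Gfra1 in both NRRA libraries, whereas Gfra1 had by far the largest in both Veh libraries. Per kilobase, the ratio of Gfra3 to Gfra1 was 0.0679 and 0.0643 in Veh, against 1.13 and 1.07 in NRRA. The order of these genes in NRRA depends on gene length. Without division by length Gfra1 held 90% of the sum in Veh and 63.5% in NRRA. With the longest transcript as the length, an alternative chosen after seeing the data, Gfra1 held 42.5% in NRRA and Gfra3 39.6%.

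**Figure D2:**
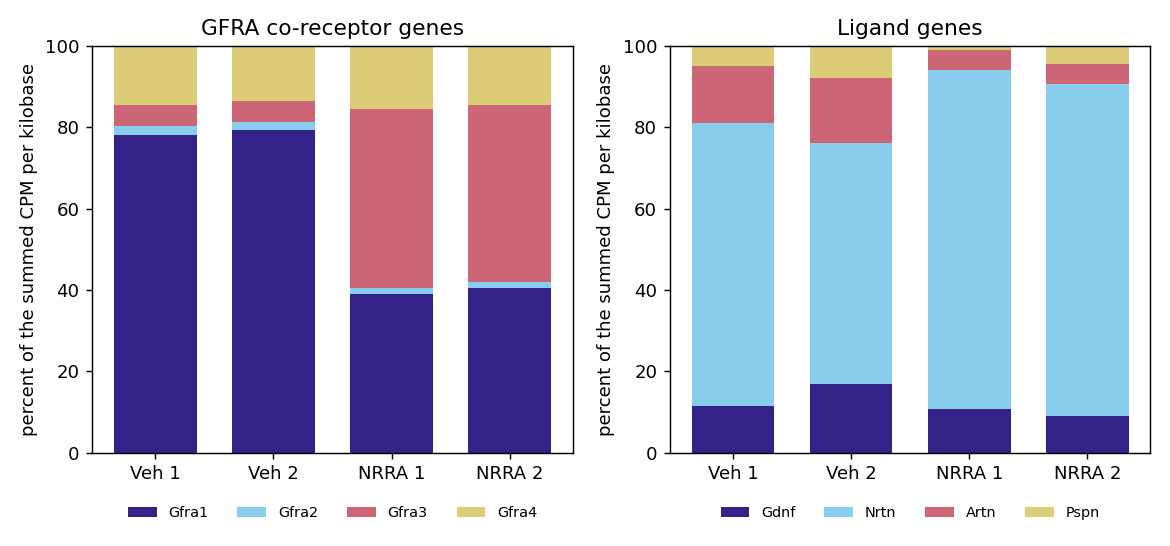
Share, in percent, of each gene in the summed CPM per kilobase of the 4 GFRA co-receptors and of the 4 ligands, in each of the 2 Veh and 2 NRRA libraries. Gfra1 makes up 78.7% of the co-receptor sum in Veh and 39.8% in NRRA, and Gfra3 5.2% and 43.7%, while Nrtn has the largest ligand share per kilobase in all 4 libraries.

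Ncam1, the neural cell adhesion molecule that can also bind GDNF (ENSMUSG00000039542, GRCm38 chromosome 9, 49502136 to 49798925, minus strand), had 807 and 1008 counts in Veh, or 29.7 and 33.9 CPM. In NRRA it had 1343 and 1285 counts, or 41.2 and 42.7 CPM. Both NRRA libraries were above both Veh libraries, although the Veh libraries differed from each other. The level went from 31.8 ± 2.91 to 41.96 ± 1.02 CPM (SD, n = 2 each), a 1.32-fold rise with a log2 fold change of 0.40 (SE 0.064, adjusted p 7.54e-06 by edgeR). Since Ret fell, the ratio of Ncam1 to Ret per kilobase of exon went from 0.055 ± 0.00575 to 0.511 ± 0.0179 (SD, n = 2 each). Of its exonic bases, 4.81% overlap the antisense gene Gm11149.

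Of 12 genes listed as other GDNF receptors or partners of NCAM1, 10 were tested, of which 5 were higher and 4 lower, beside 27.9% and 28.4% of all tested genes, with a median log2 fold change of 0.10. The largest rise was that of Sorl1, a sorting receptor that takes up GDNF, from 9.73 and 9.04 CPM in Veh to 33.3 and 31.1 CPM in NRRA (log2 fold change 1.78, SE 0.084, adjusted p 7.87e-16 by edgeR). The largest fall was that of Sdc3, syndecan-3, a heparan sulphate proteoglycan that binds GDNF, with a log2 fold change of -0.63 (SE 0.036, adjusted p 6.36e-14 by edgeR). The Ncam1-modifying polysialyltransferase genes St8sia2 and St8sia4 stayed at or below 0.731 CPM in every library.

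**Figure D3:**
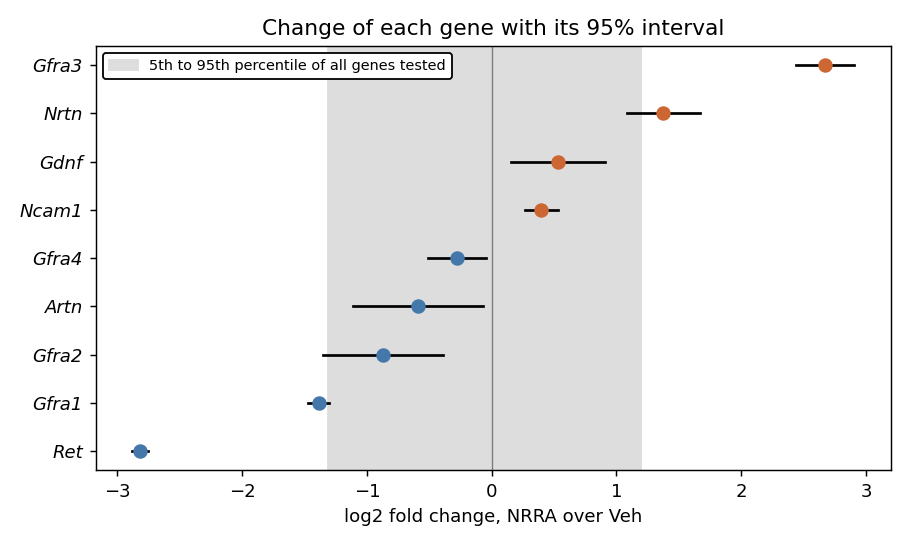
Log2 fold change of each of the 9 genes, NRRA over Veh, with 95% intervals from the edgeR fit, against a shaded range from the 5th to the 95th percentile of all tested genes (-1.31 to 1.2). The points of Ret and Gfra1 (blue, lower) and of Gfra3 and Nrtn (orange, higher) lie outside the shaded range, and those of the other genes lie inside it.

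The ligand genes had at most 330 counts in any library. Nrtn, the neurturin gene (ENSMUSG00000039481, GRCm38 chromosome 17, 56751325 to 56757530, minus strand), had 123 and 100 counts in Veh, against 330 and 310 counts in NRRA. These are 4.54 and 3.36 CPM against 10.1 and 10.3 CPM. Both NRRA libraries were at least at 2 times the level of either Veh library. Exact 95% Poisson intervals of the single libraries reached up to 5.41 CPM in Veh and down to 9.07 CPM in NRRA. The rise was from 3.95 ± 0.83 to 10.2 ± 0.117 CPM (SD, n = 2 each), with a log2 fold change of 1.38 (SE 0.14, 95% interval 1.08 to 1.67, adjusted p 5.72e-09 by edgeR). As high or higher a log2 fold change was found for 795 tested genes, Nrtn included.

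Gdnf (ENSMUSG00000022144, GRCm38 chromosome 15, 7810846 to 7837575, plus strand) was measured as RNA of the cultured cells, apart from the protein added to the medium. It was counted 72 and 102 times in Veh and then 153 and 124 times in NRRA, or 2.66 and 3.43 CPM against 4.70 and 4.12 CPM. The groups did not overlap, but the gap between them was smaller than that between the Veh libraries. Exact 95% Poisson intervals of the single libraries ran from 2.08 to 4.16 CPM over Veh and from 3.43 to 5.504 CPM over NRRA, and thus overlapped. The log2 fold change was 0.53 (SE 0.18, 95% interval 0.16 to 0.91, adjusted p 0.0147 by edgeR). The call was lost without Veh replicate 1 (log2 fold change 0.36, adjusted p 0.141), without NRRA replicate 1 (0.43, adjusted p 0.12) and in DESeq2 (adjusted p 0.096). Fibroblast feeder markers had a median log2 fold change of -0.37, and their part in the value of Gdnf was not tested.

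Artn, the artemin gene (ENSMUSG00000028539, GRCm38 chromosome 4, 117926162 to 117929763, minus strand), had 58 and 64 counts in Veh, against 45 and 44 counts in NRRA, or 2.14 and 2.15 CPM against 1.38 and 1.46 CPM. The libraries of each group were close and the groups did not overlap. The log2 fold change of -0.59 (SE 0.25, 95% interval -1.11 to -0.07) was near the threshold with an edgeR adjusted p of 0.0488. No call for Artn remained when any 1 of the 4 libraries was left out, with log2 fold changes from -0.63 to -0.55. The adjusted p of Artn was 0.203 in DESeq2, 0.0934 with library size only, 0.0829 with no filter, 0.0566 with upper quartile factors, 0.0529 in limma-voom and 0.0504 with the replicate number as a block. Artn thus had a lower value while its preferred co-receptor gene, Gfra3, rose. Pspn, the persephin gene, was not tested at 4 and 6 counts in Veh against 2 and 8 counts in NRRA. The divergent relative Gdf15 had a log2 fold change of -0.49 (SE 0.12, adjusted p 0.000864 by edgeR), and Gfral, the gene of its receptor, had at most 1 count in a library. Summed over the 4 ligand genes, levels were 9.48 and 9.14 CPM in Veh and 16.3 and 16.1 CPM in NRRA. Per kilobase of exon, Nrtn made up 64.5 ± 7.37% of the ligand sum in Veh and 82.4 ± 1.31% in NRRA (SD, n = 2 each). Without division by length its share was 42.3 ± 7.85% in Veh and 63 ± 1.08% in NRRA, and in Veh replicate 2 it was then 36.8%, beside 37.5% for Gdnf.

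The starts of Nrtn and Gdnf are shown because both genes had higher counts in NRRA and the table has entries for them. The Nrtn window is chr17:56757499-56757798 on the minus strand, with 66.7% G and C and 28 CpG, and its capitals mark the GC box GGGCGG, 86 bases before the start. The Gdnf window is chr15:7809798-7810097 on the plus strand, with 51.7% G and C and 11 CpG, and its capitals mark the motif AGGTCA, 87 bases before the start. This RefSeq start differs from that of GENCODE, since the window ends before the GENCODE gene given above begins.
Nrtn: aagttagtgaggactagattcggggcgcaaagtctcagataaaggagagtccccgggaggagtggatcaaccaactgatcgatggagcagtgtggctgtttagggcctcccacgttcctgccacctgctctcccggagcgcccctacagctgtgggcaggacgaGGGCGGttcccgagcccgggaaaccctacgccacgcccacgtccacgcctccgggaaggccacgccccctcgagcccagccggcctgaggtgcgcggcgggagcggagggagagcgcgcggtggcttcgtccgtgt
Gdnf: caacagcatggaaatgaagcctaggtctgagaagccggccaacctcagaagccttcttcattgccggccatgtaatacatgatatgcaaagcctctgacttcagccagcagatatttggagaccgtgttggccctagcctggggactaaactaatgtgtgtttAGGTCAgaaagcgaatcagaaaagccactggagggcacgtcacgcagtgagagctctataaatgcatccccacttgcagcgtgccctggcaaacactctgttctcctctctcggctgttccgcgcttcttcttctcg
AGGTCA is the unit of the repeats that several nuclear receptors, the RA receptors among them, can bind. A single copy of these letters was found in this window, and 16.3% of all promoters hold AGGTCA on at least one strand. The second Gdnf entry, chr15:7813477-7813776, lies within that gene and had 22 CpG and none of the 4 motifs, and 35.7% of all promoters hold the GC box. Among genes with lower counts in NRRA, 1 of the 2 Gfra4 entries held AGGTCA, 35 bases after its start, and the Artn entry held 2 GC boxes, 50 and 30 bases before its start. The matches are descriptions of the letters only.

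The order of the levels per kilobase of exon differed between the groups. In Veh it was Ret (66.9 ± 0.877 CPM per kilobase), Gfra1 (28 ± 0.751), Gfra4 (4.95 ± 0.152), Nrtn (3.86 ± 0.812) and Ncam1 (3.67 ± 0.337), then Gfra3 (1.85 ± 0.0215), with Artn, Gdnf and Gfra2 under 1. Nrtn and Ncam1 did not differ beyond their spread, nor did Gdnf differ from Artn or from Gfra2. In NRRA the first 4 lay close together, with Gfra3 at 11.8 ± 1.01, Gfra1 at 10.7 ± 0.50, Nrtn at 9.99 ± 0.114 and Ret at 9.47 ± 0.101 CPM per kilobase (SD, n = 2 each). Within each NRRA library Gfra3 was above Gfra1, with the ratios of 1.13 and 1.07 given above. With the longest transcript as the length, or without division by length, Gfra1 was above Gfra3 in both NRRA libraries. These 4 genes ranged from 1.85 to 66.9 CPM per kilobase in Veh and from 9.47 to 11.8 in NRRA. Ncam1 followed at 4.84 ± 0.118 and Gfra4 at 4.07 ± 0.441 CPM per kilobase, with Gdnf, Artn and Gfra2 lowest. Levels per kilobase rest on the union of annotated exons, which need not be the transcripts used in these cells.

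The genes around the receptor were taken from lists. Of 37 genes that encode adaptors and effectors of RET signalling, 8 were higher, 18 were lower and 11 passed neither threshold. Their median log2 fold change was -0.14 ± 0.028 (SD over all 4 NRRA-to-Veh library pairs). The largest rise was that of Dok4, an adaptor that binds RET, from 15.5 and 14.5 CPM in Veh to 28.3 and 29.4 CPM in NRRA (log2 fold change 0.94, SE 0.077, adjusted p 5.67e-11 by edgeR). The largest fall was that of its relative Dok5, from 3.54 and 3.70 CPM to 1.66 and 1.53 CPM (log2 fold change -1.18, SE 0.21, adjusted p 3.06e-05 by edgeR). Members named after their values were seen include the adaptors Shc1, with a log2 fold change of -0.54, and Frs2 with 0.37, the exchange factor Sos2 with -1.14 and the Src family kinase Fyn with -0.96. Of all tested genes 27.9% were higher and 28.4% lower. The list thus held a larger share of lower and a smaller share of higher genes. By at least 2-fold, 2 of the 37 were lower and 0 higher, beside 7.02% and 6.29% of all tested genes. With library size only in place of TMM, the count of higher genes in this list was 13 and that of lower genes 13.

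The 11 listed genes that are known to respond to GDNF in SSC all fell. The list was chosen with earlier results of these data known, so the counts are a description. In edgeR, DESeq2 and limma-voom 11 were lower and none was higher, beside 28.4% of all tested genes lower in edgeR. In edgeR 10 fell at least 2-fold, beside 7.02% of all tested genes. The median log2 fold change of the 11 listed genes was -2.91 ± 0.033 (SD over all 4 library pairs). The largest fall was that of Tspan8, a tetraspanin of the SSC-enriched fraction, from 10.7 and 10.1 CPM in Veh to 0.491 and 0.432 CPM in NRRA (log2 fold change -4.48, SE 0.21, adjusted p 5.43e-16 by edgeR). The smallest was that of the cyclin gene Ccnd2, with a log2 fold change of -0.59 (SE 0.024, adjusted p 3.06e-17 by edgeR). The transcription factor genes Etv5 and Lhx1, named after their values were seen, had log2 fold changes of -1.97 and -4.27. These genes are also known in undifferentiated spermatogonia, 7 of whose 10 markers were lower as well, so a change in signalling and a change in cell state cannot be told apart here.

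**Figure D4:**
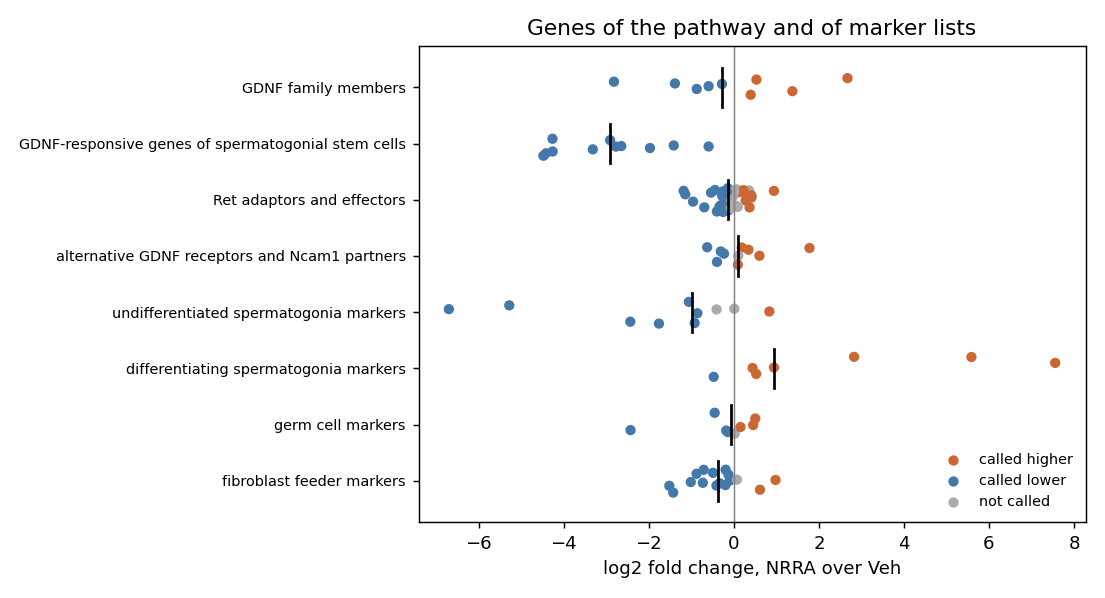
Log2 fold change, NRRA over Veh, of each tested gene of the pathway and marker lists, with a point per gene coloured by its call and a bar at the median of each list. The 11 GDNF-responsive genes all lie below 0 with a median of -2.91, whereas the 37 Ret adaptors and effectors spread to both sides of a median of -0.14.

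**Figure D5:**
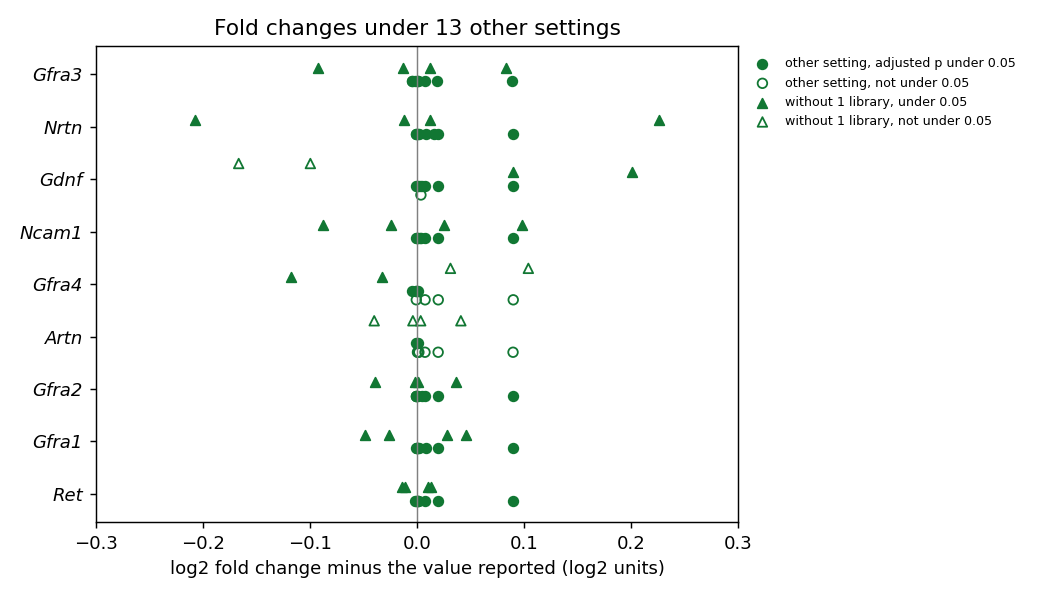
Difference, in log2 units, between the log2 fold change of each of the 9 genes under 13 other settings and the reported value, with triangles where 1 library was left out and open symbols where the adjusted p was 0.05 or more. Open symbols appear for Gdnf, Gfra4 and Artn only.

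The direction of change was the same under all 13 other settings for each of the 9 genes. Ret ranged from -2.83 to -2.73, Gfra1 from -1.43 to -1.29, Gfra3 from 2.58 to 2.76 and Nrtn from 1.17 to 1.603 in log2 fold change, and these genes, with Gfra2 and Ncam1, passed the threshold under all 13. Gdnf passed under 10, Gfra4 under 7 and Artn under 3.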

How the data were processed

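Raw read counts per gene, as deposited by the authors in 1 table, were used for all 4 libraries (2 Veh, 2 NRRA). The submitters' processing notes name bcl2fastq, STAR 2.6.1c and featureCounts 1.6.4 with the mm10 build. The annotation release and the strand setting are not given in the sources used here, so reads of genes overlapping on opposite strands could have been assigned to either. The labels name TruSeq and NuGEN reagents and the study's methods a stranded kit from Tecan. Groups and replicate numbers came from the sample titles, and columns were matched to samples by the descriptions, whose Veh numbers are higher by 1.

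NRRA and Veh were compared in R 4.3.3 with edgeR 4.0.16: filterByExpr, TMM scaling, and a robust quasi-likelihood F test, with Benjamini-Hochberg adjustment over 20232 genes and a threshold of 0.05. SE values came from the F statistic. CPM used TMM-scaled library sizes, a prior count of 2 was added for log2 CPM, and 95% intervals rest on the fit. Alternatives were DESeq2 1.42.0, limma-voom 3.58.1, other scalings and filters, a replicate block and leaving out each library. The test was checked on simulated counts. Coordinates and exon unions came from GENCODE M21 (GRCm38), in which 55240 of 55421 identifiers (99.7%) were found, and near-identical sequence was searched with BLAST 2.17.0. Promoter windows came from RefSeq.

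The genes and lists were chosen with earlier results of these data known. The text names every family gene, the genes with the largest and smallest log2 fold change among those called in each pathway list, and the 3 genes nearest in profile to Ret and to Gfra1. Marker lists covered germ cells, undifferentiated and differentiating spermatogonia, feeder fibroblasts, Sertoli, peritubular, Leydig, Schwann and neural cells, and macrophages. Protein sequences were not used here.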

Additional observations from a re-analysis of the deposited data

How the results depend on the processing

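Of 117 values for the 9 genes under 13 other settings, 98 stayed past the threshold, 19 did not and 0 changed direction. Ret, Gfra1, Gfra2, Gfra3, Nrtn and Ncam1 were called throughout. The cause of the lost calls was not tested. Calls lower in NRRA numbered 3 in place of 5 with upper quartile factors, library size only, no filter on low counts or DESeq2, and 3 to 4 when a library was left out (3 without Veh replicate 1 or NRRA replicate 2). The log2 fold change of Gfra4 was then -0.26, -0.19, -0.27 and -0.28 in the same order, and -0.40 to -0.18 without a library. That of Artn was -0.57, -0.50, -0.59 and -0.59, it was -0.59 in limma-voom, and it ranged from -0.63 to -0.55 without a library. That of Gdnf was 0.535 in DESeq2 and 0.36 to 0.73 without a library. A library left out leaves its group with 1, which is assumed to vary like the other group.

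Deviations from the group means of same-numbered libraries correlated at -0.01 across genes, so no deviation shared by number was seen. Whether the libraries were paired by culture or day cannot be told from this, since title numbers need not follow a pairing. With the replicate number as a block, Artn had a log2 fold change of -0.59 and an adjusted p of 0.0504, and no other of the 9 genes lost its call.

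Higher calls among Ret adaptors and effectors numbered 13 in place of 8 with library size only, a scaling that moved the median of all genes by 0.09 in log2. Higher calls among other GDNF receptors and Ncam1 partners numbered 3 to 5 without a library, with 3 in place of 5 without Veh replicate 1 or NRRA replicate 2. The Gfra1 share of the co-receptor sum was 90% in Veh and 63.5% in NRRA without division by length, and 42.5% in NRRA with the longest transcript as the length, chosen after seeing the data. Among the 9 genes, the SE of the log2 fold change was largest for those with the fewest counts. It was 0.18 for Gdnf, 0.23 for Gfra2 and 0.25 for Artn, against 0.031 for Ret. The part of depth in these values was not tested.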

Other observations

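Markers of somatic cell types other than the feeder cells were counted as well. Of the 10 Sertoli cell markers 6 were tested, with 1 higher and 2 lower in NRRA, and Inhbb and Sox9 had log2 fold changes of -1.28 and -1.59. Of 6 peritubular and smooth muscle markers 5 were lower, with sums of 183.6 and 189.8 CPM in Veh and 114.3 and 125.4 CPM in NRRA. The 6 Leydig cell markers, of which 2 were tested and 1 was higher, summed to at most 9.58 CPM. Of 6 macrophage markers 1 was lower, and their sum was 47.8 and 52.4 CPM in Veh and 43.1 and 41.6 CPM in NRRA. Of all tested genes, 27.9% were higher and 28.4% lower. The part of the marker genes in the values of the GDNF family was not tested.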
